A study of Mus musculus with 25 samples.

Results

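The Mef2c/MAML sites are the genomic fragments that split DamID marked in mouse mK4 cells when one Dam part was fused to Mef2c and the other to MAML. All regions of the deposited Mef2c/MAML list on the 19 autosomes and the X chromosome were taken, 50380 regions, and 1 region on the Y chromosome was left out. Together the 6 SpDamID lists of the series hold 96405 distinct fragments on these chromosomes, so that 52.3% of all distinct fragments are in the Mef2c/MAML list. It is the largest of the 6. N1/N1 gave 31936 regions, Mef2c/p300 28757, N1/RBP 28281, N1/p300 22358 and N1/MAML 16545.

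Mef2c is a MADS-box transcription factor best known from muscle, heart, neurons and neural crest. It binds an AT-rich element and works with co-activators and with class II histone deacetylases, which hold it in check. MAML (Mastermind-like) is the co-activator that completes the nuclear Notch complex by binding the groove formed by cleaved Notch and the DNA-binding protein RBP, and it brings in the acetyltransferase p300. A role of Mastermind-like proteins with Mef2c, outside Notch signalling, is known from muscle cells. In split DamID the bacterial adenine methylase Dam is cut into inactive parts, D and AM, and adenine in GATC is methylated where the proteins carrying D and AM come together. Methylated DNA is cut by DpnI, so a site is read as a whole fragment between neighbouring cut sites, whose ends are set by the genome.

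The Mef2c/MAML library is labelled Mef2c-D with MAML-AM-Ert2 and is a single library from mK4, a line made from mouse embryonic kidney mesenchyme. It was scored against 3 libraries labelled DAM from the same line. The strain label reads CD3 for the Mef2c/MAML library and CD1 for the 3 DAM libraries. Ert2 is a hormone-binding domain of the oestrogen receptor, and whether or for how long a ligand was given is not stated in the sources used here, nor is the clone or the promoter behind the fusions. The comparison lists are N1-D with RBP-AM-Ert2, MAML-AM-Ert2 or p300-AM-Ert2 (3 libraries each), N1-D with N1-AM-Ert2 (2 libraries) and Mef2c-D with p300-AM-Ert2 (1 library). Open chromatin was mapped by FAIRE in cells labelled N1wt (3 libraries), not in cells with Mef2c fusions.

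The deposited file gives 1 score per region and no value per library, and the depth is unknown. No test over samples is therefore possible, and every share below is a description. Intervals in parentheses are exact Clopper-Pearson 95% intervals. They cover counting error over fragments only, and neighbouring fragments are not independent. A fragment counted as shared or as open when it overlapped the other region by 1 bp or more.

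Mef2c/MAML fragments were short, and few were long. Their median was 486 bp, with quartiles at 404 and 596 bp, and together they covered 25.8 Mb. The shortest had 109 bp and the longest 4730 bp, on chromosome 12 from 36493226 to 36497955 (mm9). Only 219 fragments (0.435%) were over 1000 bp. In the other lists that share was 5.96% in Mef2c/p300, 8.69% in N1/p300, 15.3% in N1/RBP, 23.4% in N1/MAML and 31% in N1/N1. Conversely, the Mef2c/MAML list held 86.5% of the 12092 distinct fragments of 300 to 399 bp, 48% of the 21048 from 600 to 799 bp and 1.58% of the 12722 from 1000 to 1999 bp. Since membership of the list varies with length, results on open chromatin are given below within length classes as well.

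The deposited score ran from 1 to 853, with a median of 350 and quartiles at 197 and 484. The sources used here do not say what scale it has. At the low end 140 fragments had a score of 1 and 58 a score of 2, and fragments without a score are not in the file. The score took 698 different values, and few of them were very common: 1181 fragments had a score of 82, 1130 a score of 64 and 974 a score of 166. The 10 commonest values held 16.5% of the Mef2c/MAML fragments, 23% of those of Mef2c/p300, the other list from 1 library, and 6.49 to 12.2% of those of the N1 lists. Ranks within such blocks of equal scores are arbitrary.

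Mef2c/MAML sites lay on every chromosome used, at unequal density. Density was counted per Mb up to the last region in any deposited list. Chromosome 19 had 33.3 fragments per Mb and chromosome 11 had 29.4, followed by chromosomes 8 (25.5), 15 (24.6) and 3 (23.6). Among autosomes the sparsest were chromosome 12 with 13.8 and chromosome 14 with 13.7, and the X chromosome had 8.71. Over the 20 chromosomes this order went with the density of total FAIRE regions (Pearson r = 0.91, Spearman rho = 0.83), which share the gene content and map of each chromosome. It also went with the other lists, and the Mef2c/MAML share of all distinct fragments stayed between 50.3% on chromosomes 8 and 16 and 54.5% on chromosome 11. The X chromosome had 0.44 times the autosomal density for Mef2c/MAML and 0.441 times for Mef2c/p300, while N1/RBP had 0.264, N1/p300 0.289, N1/N1 0.341, N1/MAML 0.385 and total FAIRE 0.285 times theirs. Of the 1452 fragments on X, 12.4% were in total FAIRE and 32.9% in an N1 list. On chromosome 19 these shares were 27.9 and 44.9%.

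**Figure D1:**
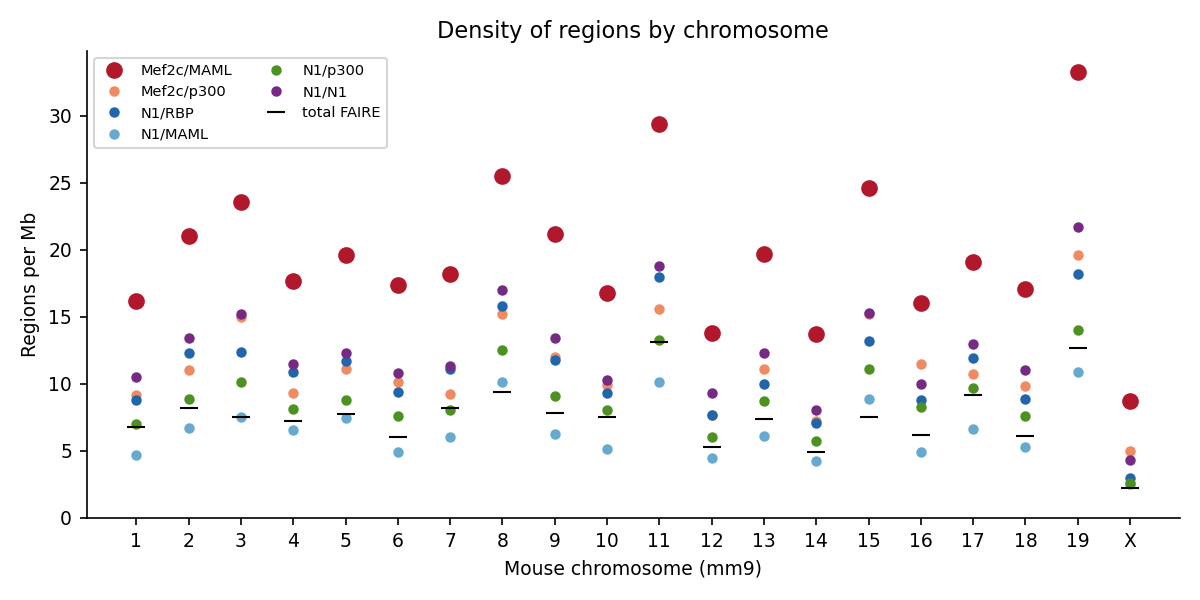
Regions per Mb (vertical axis) on each mouse chromosome of build mm9 (horizontal axis) for the 6 SpDamID lists (points) and total FAIRE (dashes), 1 value per list and chromosome. Mef2c/MAML is the highest point on every chromosome, from 8.71 per Mb on X to 33.3 on chromosome 19.

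Within chromosomes the sites were unevenly spread. Of 2648 windows of 1 Mb, 491 (18.5%) held no Mef2c/MAML fragment, the median window held 14 and the fullest 170. The 265 fullest windows held 31.7% of the list. The corresponding share was 33.6 to 38% in the other SpDamID lists and 38.1% for total FAIRE. Counts per window correlated with those of the other SpDamID lists at r = 0.87 to 0.92 and with total FAIRE at r = 0.82, as a description over windows that share a fragment map and the Dam control.

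The fullest windows were neighbours on chromosome 15, where total FAIRE gave 0 to 6 regions per window, beside a median of 4 and quartiles of 0 and 11 over all windows. From 12000001 to 13000000 (mm9) there were 170 Mef2c/MAML fragments among 352 distinct ones and 0 total FAIRE regions. The window before it held 157 fragments and 6 FAIRE regions, and the one from 10000001 to 11000000 held 140 fragments and 2 FAIRE regions. Next in number came 95000001 to 96000000 on chromosome 3, with 134 fragments and 47 FAIRE regions, and 139000001 to 140000000 on chromosome 5, with 122 and 27. All SpDamID lists were dense in the chromosome 15 stretch, and N1 ChIP gave 172 regions in its last Mb.

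Mef2c/MAML fragments of the chromosome 15 stretch differed in their company from the rest of the list. Among these 467 fragments, 13 lay in total FAIRE, 2.78% (1.49 to 4.71), against 22.1% (21.8 to 22.5) of the other 49913. Mef2c/p300 held 46.5% of them and 27.8% of the rest, while N1/MAML held 8.35 and 20.9% and N1/RBP 21.6 and 30.7%. The stretch itself has its own levels, which these shares include. Over its 933 distinct fragments Mef2c/p300 held 372, N1/MAML 196 and N1/RBP 181. Among the 467 Mef2c/MAML fragments the counts were 217, 39 and 101. Scores of these 467 were ordinary, with a median of 338 against 350. Without the stretch no share in another list or in FAIRE left its 95% interval for the whole list.

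Fragments were often direct neighbours. In the Mef2c/MAML list 11539 fragments (22.9%) touched another one with no base between them, at 6260 junctions. That share was 24.1% in N1/N1, 22.5% in N1/RBP, 21% in N1/p300, 16.1% in N1/MAML and 13.3% in Mef2c/p300. These are smaller lists with fewer possible neighbours, but the shares did not follow list size. N1/N1 was above Mef2c/MAML, and Mef2c/p300 with 28757 regions was below N1/RBP with 28281. The parts of list size and fragment length were not tested. Chains of touching fragments are called runs here. There were 5279 runs of 2 or more: 4482 pairs, 652 triplets, 117 runs of 4 and 28 of 5 or more. The longest, on chromosome 3 from 97828046 to 97832238, joined 8 fragments over 4193 bp. Of these 8, N1/RBP held 7, N1/N1 6, Mef2c/p300 5 and N1/MAML and N1/p300 4 each, and 6 lay in total FAIRE. Their scores spread from 84 to 610.

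Next came a run of 7 on chromosome 3, from 104099085 to 104102948, with 4 fragments in total FAIRE and 5 in Mef2c/p300. Runs of 6 lay on chromosome 6 from 34546854 to 34550580, on chromosome 5 from 53954530 to 53957781 and on chromosome 15 from 12063323 to 12066015. The chromosome 5 run was the most evenly strong, with scores of 465 to 655 and all 6 fragments in Mef2c/p300. The chromosome 15 run had 0 fragments in FAIRE and 4 in Mef2c/p300.

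**Figure D2:**
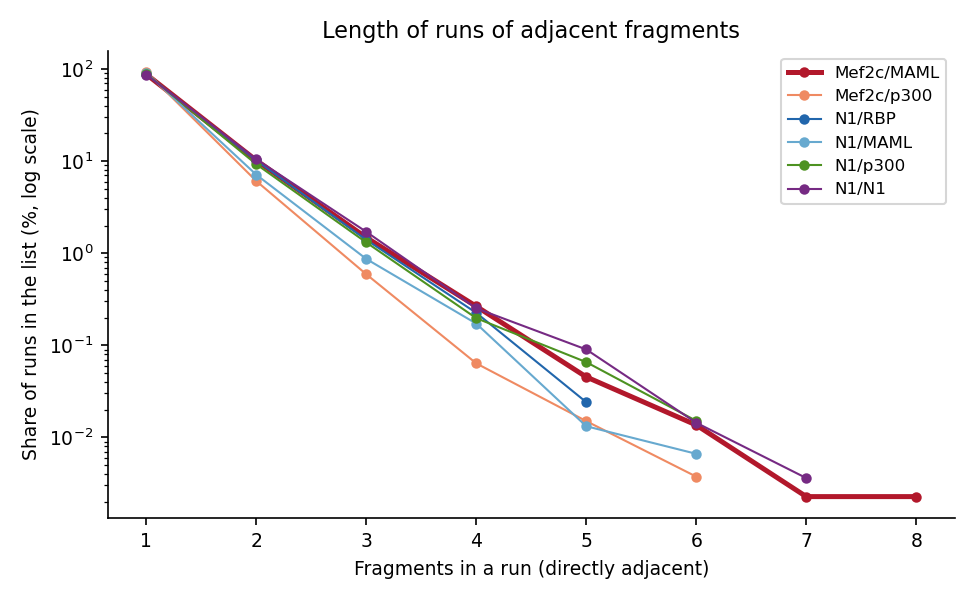
Share of runs in each list (vertical axis, percent, log scale) by the number of directly adjacent fragments in the run (horizontal axis), with single fragments as runs of 1. The Mef2c/MAML line reaches 8 fragments, and the other lists end at 5 to 7.

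Touching fragments did not have matching scores. Over the 6260 touching pairs the scores correlated at r = 0.13 (rho = 0.14, across pairs, a description), and the median difference within a pair was 155. Both members lay in an N1 list in 2635 pairs (42.1%), one in 2041 (32.6%) and neither in 1584 (25.3%). Fragments in runs lay in open chromatin more often than single ones. Total FAIRE held 18.8% (18.4 to 19.2) of the 38841 single fragments, 31.1% (30.1 to 32.0) of those in pairs, 37.1% (34.9 to 39.2) of those in triplets and 39.9% (36.0 to 43.9) of the 619 in longer runs. Median lengths in these classes were 488, 477, 484 and 473 bp, and median scores were 330, 411, 440 and 479.

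Looser clustering was general. Another Mef2c/MAML fragment lay within 10 kb of 72.8% of fragments, against 46.4% in N1/MAML and 58.7 to 66.4% in the other lists, which hold fewer regions. The closer the nearest neighbour, the more often a fragment was open or shared. Of the 11189 with the neighbour at 1 bp to 1 kb, 28.7% lay in total FAIRE and 49.9% in an N1 list. For the 12568 with a neighbour at 10 to 100 kb the shares were 13.2 and 34.8%. The 1149 isolated fragments, over 100 kb from any other, had 6.79% in total FAIRE, 25.7% in an N1 list and a median score of 273.

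Mef2c/MAML was next set against each Notch list and against Mef2c/p300, to see how far a Mef2c complex shares fragments with N1 complexes that use the same co-activators. N1/RBP held 15422 Mef2c/MAML fragments, 30.6% (30.2 to 31.0), and 29.3% of all distinct fragments. Mef2c/p300 held 14105, 28.0% (27.6 to 28.4), against 29.8% of all. N1/N1 held 13475, 26.7% (26.4 to 27.1), against 33.1%. N1/p300 held 12900, 25.6% (25.2 to 26.0), against 23.2%, and N1/MAML held 10487, 20.8% (20.5 to 21.2), against 17.2%. Without matching for length, the shares of N1/MAML and N1/p300 were above the background, and that of N1/N1 was below it. Those of N1/RBP and Mef2c/p300 were near it. N1/N1 held 8926 of the 12722 distinct fragments of 1000 to 1999 bp, and Mef2c/MAML held 1.58% of them. Among Mef2c/MAML fragments of 405 to 786 bp, N1/N1 held 28%, Mef2c/p300 33.1% and N1/RBP 34.7%. There were 18639 distinct fragments of 400 to 499 bp, 15980 of 500 to 599 bp and 21048 of 600 to 799 bp. Of these, Mef2c/p300 held 4766, 6434 and 10109, N1/N1 3907, 4150 and 6558, and N1/RBP 4123, 5172 and 8169. These length classes are not the same range, and the order against a background of equal length was not tested. A fragment outside the Mef2c/MAML list is counted only if it is in another one, which raises the background. Of the 46025 distinct fragments outside the list, N1/MAML held 13.2% (12.9 to 13.5), N1/p300 20.5% (20.2 to 20.9), N1/RBP 27.9% (27.5 to 28.4), Mef2c/p300 31.8% (31.4 to 32.3) and N1/N1 40.1% (39.7 to 40.6).

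Read from the other side, the shares were larger, since the Mef2c/MAML list is the longest. It held 63.4% (62.6 to 64.1) of N1/MAML, 57.7% (57.0 to 58.3) of N1/p300, 54.5% (53.9 to 55.1) of N1/RBP, 49.0% (48.5 to 49.6) of Mef2c/p300 and 42.2% (41.7 to 42.7) of N1/N1. Of all distinct fragments it held 52.3%. That value includes the 22724 Mef2c/MAML fragments in no other list, which cannot be in the lists compared. Of fragments in at least 1 other list, 27656 were in Mef2c/MAML and 46025 were not. The shares of the other lists were not matched for length, and 31% of N1/N1 was over 1000 bp, against 0.435% of Mef2c/MAML. Within each other list the better scored regions were held more often. Mef2c/MAML held 75.2% of N1/MAML regions from the median N1/MAML score up and 51.3% of those below it. For Mef2c/p300 the values were 58.7 and 39.2%, and for N1/N1 50.3 and 34%.

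**Figure D3:**
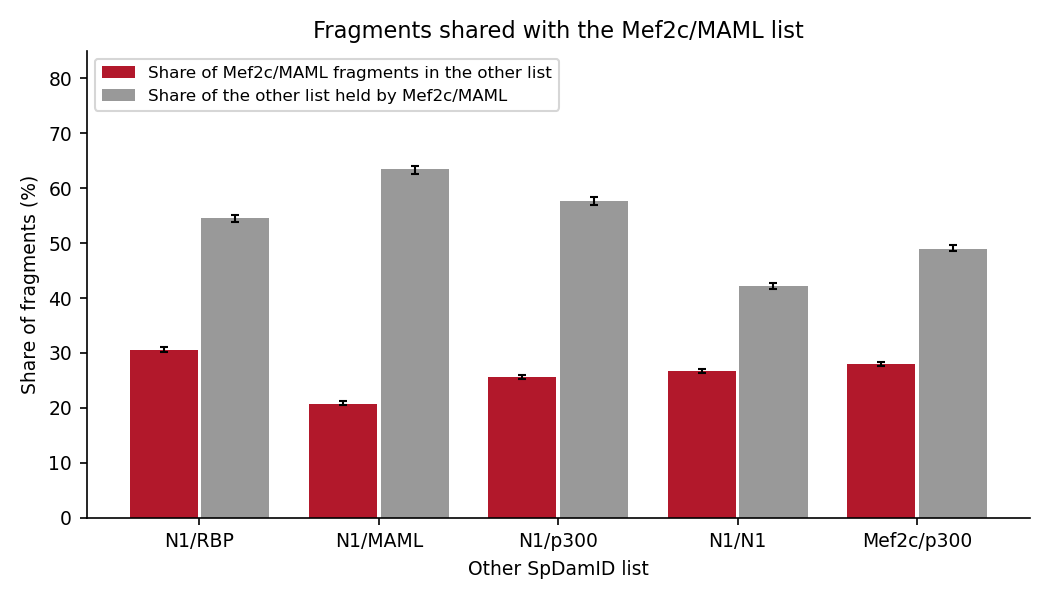
Share of fragments (vertical axis, percent) that the Mef2c/MAML list has in common with each other SpDamID list (horizontal axis), as a share of Mef2c/MAML (red) and of the other list (grey). Bars show exact 95% intervals for counting error, and the grey bars run from 42.2% for N1/N1 to 63.4% for N1/MAML.

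Presence in Mef2c/MAML went with how many N1 lists marked a fragment. Mef2c/MAML held 22.3% (21.9 to 22.8) of the 32095 fragments in 1 N1 list, 44.7% (43.8 to 45.6) of those in 2, 64.6% (63.4 to 65.7) of those in 3 and 92.8% (92.1 to 93.5) of the 5730 in 4. For Mef2c/p300 the same steps gave 10.6, 22.6, 35.7 and 52.3%. All these lists were scored against the same Dam libraries, and the part of that control in the sharing was not tested. Nor was the part of length. Fragments outside Mef2c/MAML had a median of 939 bp in 1 N1 list and 671 bp in 4.

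Of the 50380 Mef2c/MAML fragments, 28204 (56%) lay in no N1 list, 7173 (14.2%) in 1, 5217 (10.4%) in 2, 4467 (8.87%) in 3 and 5319 (10.6%) in 4. Of all 96405 distinct fragments, 32095 lay in 1 N1 list, 11677 in 2, 6917 in 3 and 5730 in 4. Those outside Mef2c/MAML are counted only if another list holds them. Mef2c/p300 also held 2904 of the Mef2c/MAML fragments in 4 N1 lists, so that 5.76% of the list lay in all 6 lists. No other SpDamID list held 22724 fragments (45.1%). Many of these were still close to a fragment of another list: 3934 (17.3%) touched one, 8892 (39.1%) had one within 1 kb and 16432 (72.3%) within 10 kb. The touching ones had 17.1% in total FAIRE, and the 6292 farther than 10 kb from any other list had 3.91%. Median scores in these classes were 296 and 239.

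Partners were then taken apart. Fragments that carry the co-activator MAML with either factor, in Mef2c/MAML and N1/MAML but not in Mef2c/p300, numbered 6723. Fragments that carry Mef2c with either co-activator, in Mef2c/MAML and Mef2c/p300 but not in N1/MAML, numbered 10341. The MAML class had 45.3% (44.1 to 46.5) in total FAIRE, a median score of 473 and a median length of 416 bp. The Mef2c class had 18.8% (18.1 to 19.6), a median score of 400 and a median length of 580 bp. The 3764 fragments of all 3 lists had 56.8% (55.2 to 58.4) and a median score of 569. The 29552 in neither had 13.3% (12.9 to 13.7) and a median score of 273. N1 ChIP held 6.5% (5.92 to 7.12) of the MAML class and 0.338% (0.236 to 0.47) of the Mef2c class. These classes also differ in length and in how many N1 lists hold them: 35.9% of the MAML class lay in all 4 N1 lists, and 53% of the Mef2c class in none. Part of that is set by definition. The MAML class is always in N1/MAML and so never in 0 N1 lists, and the Mef2c class is never in 4. At a fixed number of N1 lists the gap in total FAIRE was smaller, with 31.5% (28.9 to 34.2) of the MAML class and 20.5% (18.7 to 22.4) of the Mef2c class in 1 N1 list, and 39.1% (36.5 to 41.7) and 32.7% (30.4 to 35) in 2. In 3 N1 lists the values were 43.8% (41.4 to 46.3) and 46.2% (43.5 to 48.8). Even at the same number, the 2 classes lie in different N1 lists, since only the MAML class is in N1/MAML. The part of length was not tested.

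Score and sharing went together across the list. In the lowest band, scores of 1 to 99, 69.7% (68.6 to 70.8) of 6939 fragments were in no other SpDamID list, and 21.5% (20.5 to 22.4) were in an N1 list. At 300 to 399 these shares were 49.8 and 38.5%, and at 600 to 699 they were 7.81% (6.9 to 8.8) and 81.9% (80.5 to 83.2) of 3175 fragments. N1/MAML held 4.47% of the lowest band and 63.5% of that at 600 to 699. Mef2c/p300 held 13.6 and 64.1% of the same bands. Total FAIRE held 11.8% (11 to 12.6) and 44.3% (42.5 to 46.0). Median length was 495 bp in the lowest band and 452 bp at 600 to 699, so fragments of the higher band were the shorter ones. Among shared fragments the scores of both lists were only loosely related, with r from 0.22 for Mef2c/p300 and N1/N1 to 0.36 for N1/MAML, as a description across fragments with a common control.

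**Figure D4:**
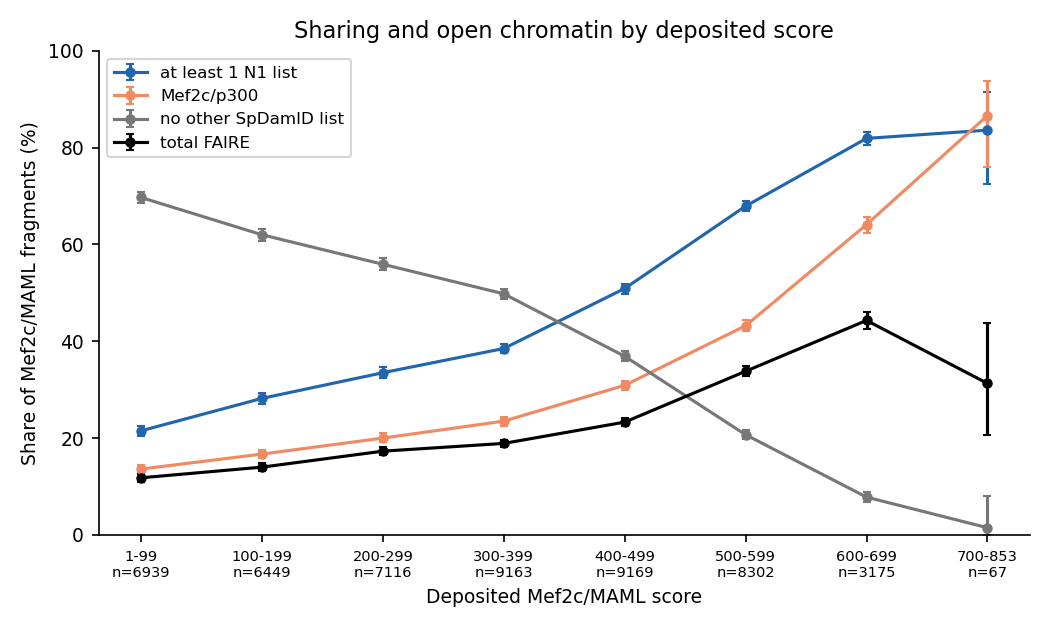
Share of Mef2c/MAML fragments (vertical axis, percent, exact 95% intervals for counting error) in an N1 list, in Mef2c/p300, in no other SpDamID list and in total FAIRE, by band of the deposited score (horizontal axis, n fragments in each). From the lowest band to 600 to 699 the share in an N1 list goes from 21.5 to 81.9%, while total FAIRE is at 31.3% in the last band of 67 fragments, below the 44.3% of the band before but with overlapping intervals.

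At the highest scores sharing was frequent as well: of the 67 fragments scored 700 or more, 83.6% (72.5 to 91.5) lay in an N1 list, 86.6% (76 to 93.7) in Mef2c/p300 and 1.49% in no other list. Total FAIRE held 31.3% (20.6 to 43.8) of them, and 0 of the leading 10. Of these 10, 5 lay within 70.12 kb on chromosome 13 and 3 within 8.721 kb on chromosome 11.

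The chromosome 13 stretch, from 83732121 to 83802236 (mm9), held 7 Mef2c/MAML fragments with scores of 624 to 853. The fragment from 83772512 to 83772888, had the highest score of the list, 853, and a Mef2c/p300 score of 837. That from 83795844 to 83796090 had 831 and 817. Adjacent fragments from 83801052 to 83802127 and from 83802128 to 83802236, the shortest of the list, had 786 and 789, with Mef2c/p300 scores of 867 and 833. All 7 were in Mef2c/p300, 0 in any N1 list, 0 in FAIRE and 0 in N1 ChIP. With 100 kb added to each side there was 1 more Mef2c/MAML fragment. Of the leading 10 Mef2c/p300 fragments, 3 lay in the same stretch.

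The chromosome 11 stretch, from 50071425 to 50080145, went with MAML in place of Mef2c. It held 5 fragments with Mef2c/MAML scores of 631 to 809, all in N1/MAML, where they scored 817 to 870 and made up 5 of the leading 10. The fragment from 50078833 to 50079988 had 809 for Mef2c/MAML, 869 for N1/MAML and 178 for N1/N1. The one from 50071425 to 50072897 had 800, 870 and 204. None of the 5 lay in N1/RBP, N1/p300, Mef2c/p300 or FAIRE, and 1 lay in N1 ChIP. In the RefSeq table of GRCm38.p6 the gene Mef2c is on chromosome 13 and Maml1 on chromosome 11, with Maml2 on 9 and Maml3 on 3. Gene positions in mm9 were not analysed here, so whether these stretches are the genes of the fused proteins was not tested.

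The other 2 of the leading 10 were in Mef2c/p300 as well: chromosome 12, 85264258 to 85264693, with scores of 748 and 682, and chromosome 8, 93425284 to 93425797, with 747 and 714. Among fragments of all 6 lists the best lay on chromosome 3 from 86672644 to 86673047, with a Mef2c/MAML score of 739, an N1/MAML score of 609 and an N1/p300 score of 584, outside FAIRE. It was followed by chromosome 11, 19735230 to 19735628 (734), and chromosome 3, 28422297 to 28422683 (727), both in total FAIRE. The best of those in no other list were on chromosome 4 from 34441617 to 34442016 (723), chromosome 5 from 31871073 to 31871451 (689) and chromosome 9 from 59362362 to 59362753 (683), all outside FAIRE.

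Open chromatin held a minority of Mef2c/MAML sites. Total FAIRE held 11051 fragments, 21.9% (21.6 to 22.3), against 19.3% of all distinct fragments and 16.5% (16.1 to 16.8) of the 46025 distinct fragments outside the list. The latter are longer, with a median of 830 bp. Among fragments of 405 to 786 bp, total FAIRE held 19.9% (19.5 to 20.4) of 35244 Mef2c/MAML fragments and 11.3% (10.8 to 11.7) of 18659 others. By length, Mef2c/MAML and other fragments had 17.6 and 10.9% at 400 to 499 bp and 31.4 and 17.6% at 800 to 999 bp. Below 300 bp the order was the other way, 41.3 and 46.8%. At 300 to 399 bp they had 24 and 23.7%.

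Notch-dependent FAIRE, the open regions that the authors deposited under that name, held 1530 Mef2c/MAML fragments, 3.04% (2.89 to 3.19), against 2.80% of all distinct fragments. The share was near the background. In the range of 405 to 786 bp it was 2.66% (2.5 to 2.83) for Mef2c/MAML and 1.62% (1.44 to 1.81) for other fragments. Below 300 bp the order was the other way, 6.29 and 8.77%, as at 300 to 399 bp, 3.57 and 4.04%. At 400 to 499 bp the shares were 2.2 and 1.58%, and Mef2c/MAML stayed higher in each length class up to 1999 bp. From 2000 bp on, with 18 Mef2c/MAML fragments, they were 0 and 1.79%. N1 ChIP held 891, 1.77% (1.66 to 1.89), against 1.41% of all distinct fragments.

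Most of the openness of the list lay in fragments that N1 complexes also marked. Total FAIRE held 8.42% (8.1 to 8.75) of the 28204 Mef2c/MAML fragments in no N1 list, 23.3% (22.4 to 24.3) of those in 1, 34.6% (33.3 to 35.9) in 2, 44.3% (42.8 to 45.8) in 3 and 60.6% (59.2 to 61.9) in 4. Notch-dependent FAIRE held 1.07% (0.954 to 1.2), 3.29, 4.52, 6.22 and 8.99% (8.23 to 9.79) of the same classes. Median lengths were 466, 505, 532, 544 and 516 bp. In all, 8676 of the 11051 open Mef2c/MAML fragments lay in an N1 list, beside 22176 (44%) of the 50380 in the whole list. Of the 7582 open distinct fragments outside it, 3858 lay in 1 N1 list, 2018 in 2, 1138 in 3 and 227 in 4. Of all 46025 outside it, 24922 lay in 1, 6460 in 2, 2450 in 3 and 411 in 4. Fragments outside the list are counted only if another SpDamID list holds them, which fixes most of their presence in N1 lists. Whether the pattern is particular to the list was therefore not tested.

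Presence in Mef2c/p300 went with differences in FAIRE share in either direction once the number of N1 lists was held fixed. In no N1 list, total FAIRE held 7.26% (6.59 to 7.98) of fragments in Mef2c/p300 and 8.7% (8.34 to 9.07) of those outside it. In 1 it held 20.4% (18.7 to 22.3) and 24.4% (23.3 to 25.6), and in 2 it held 31.9% (29.8 to 34.1) and 36% (34.4 to 37.6). In 3 N1 lists it held 44.3% (42.0 to 46.5) and 44.3% (42.4 to 46.3). In 4 the order was the reverse of the first, 63.5% (61.8 to 65.3) and 57.0% (55.0 to 59.0). Median lengths in and outside Mef2c/p300 were 544 and 448 bp in no N1 list and 551 and 467 bp in 4. The part of length was not tested. Notch-dependent FAIRE held 8.99% of both classes in 4 N1 lists (7.97 to 10.1 and 7.87 to 10.2). Fragments outside Mef2c/MAML had total FAIRE shares of 15.5% in 1 N1 list, 31.2% in 2, 46.4% in 3 and 55.2% (50.3 to 60.1) in 4, where they numbered 411 only.

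**Figure D5:**
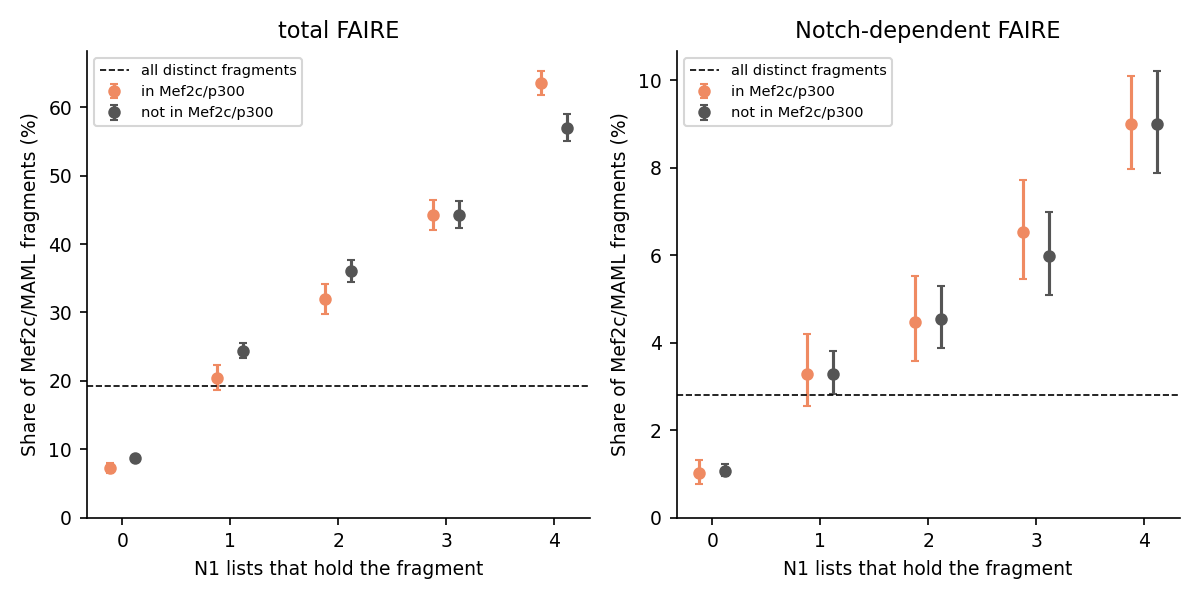
Share of Mef2c/MAML fragments (vertical axes, percent, exact 95% intervals for counting error) in total FAIRE (left) and Notch-dependent FAIRE (right) by the number of N1 lists that hold them (horizontal axis), for fragments in Mef2c/p300 (orange) and not in it (grey). The dashed lines are all distinct fragments, 19.3 and 2.80%, and fragments in no N1 list lie below both lines.

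Distance to open chromatin placed the list between the N1 lists and Mef2c/p300. Median distances from a fragment's centre to the nearest centre of a total FAIRE region were 9160 bp for Mef2c/MAML, 14440 bp for Mef2c/p300 and 2393 to 4002 bp for the N1 lists. Within 1 kb of such a centre lay 24.3% of Mef2c/MAML fragments, 18.8% of Mef2c/p300 and 34.3 to 38.7% of the N1 lists. Mef2c/MAML fragments numbered 12249 in the first kb and 836.8 per kb at 5 to 10 kb, a ratio of 14.6. Mef2c/p300 had a ratio of 10, N1/N1 of 23.5, N1/RBP of 27.5, N1/p300 of 28.8 and N1/MAML of 33.

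Counted by open region, Mef2c/MAML marked 7898 of 19353 total FAIRE regions, 40.8% (40.1 to 41.5), with 1 fragment in 5399, 2 in 1917 and 3 or more in 582. Marked regions were longer than unmarked ones, with medians of 1022 and 844 bp, and had higher MACS scores, with medians of 174 and 146. An N1 list also marked 6954 of the 7898 (88%). Of all 19353 regions, N1 lists thus marked 6954 together with Mef2c/MAML and 3980 without it, and 944 were marked by Mef2c/MAML without N1. The part of region length in this sharing was not tested. Of the 2396 Notch-dependent regions Mef2c/MAML marked 1041, 43.4% (41.5 to 45.5), of which 953 (91.5%) also had an N1 list and 88 had none. N1 lists marked a further 596 of the 2396 without Mef2c/MAML. The share marked by Mef2c/MAML was 36.1% of Notch-dependent regions below the first quartile of MACS scores and 50.8% of those above the last. Total FAIRE regions had 33.9 and 48.1%, and those without a Notch-dependent region had 34.1 and 46.5%.

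The open regions with most Mef2c/MAML fragments were long ones. The region on chromosome 15 from 13129703 to 13153225, 23523 bp, is in both FAIRE lists and held 13 fragments, with 2 of Mef2c/p300 and 9 of N1/RBP. On chromosome 5, 143573553 to 143585995 held 12, along with 12 of N1/RBP and 7 of Mef2c/p300, at a MACS score of 992.29. Chromosome 19, 5841415 to 5849885, held 9, and chromosome 5, 140266571 to 140275681, held 8.

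The best scored Mef2c/MAML fragments in Notch-dependent FAIRE differed in their partners. That on chromosome 7 from 96709263 to 96709710 scored 721 and lay in all 6 lists, with 549 for N1/RBP and 558 for Mef2c/p300. That on chromosome 6 from 31038676 to 31039093 scored 702 and was stronger in the N1 lists, where N1/MAML gave 765, N1/p300 759 and N1/N1 710. Between them, chromosome 19 from 18965068 to 18965501 scored 715 and lay in N1/N1 (444) and Mef2c/p300 (384), and in no other list.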

How the data were processed

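SpDamID, FAIRE and ChIP regions of mK4 cells were used in build mm9, per the submitters' processing notes. The 6 deposited SpDamID lists give each region a score over Dam, in whole numbers and at a confidence of 0.999 or more, per the file headers. Lists were matched to complexes by the initials of the paired proteins. The FAIRE lists hold the deposited MACS score of peaks called in Galaxy, per the file headers. The deposited ChIP table gives a signal for ChIP and for input and their ratio, and only its positions were used here. The sources used here name no aligner, caller version or library depth.

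All positions are 1-based and include both ends, and FAIRE starts were moved by 1 base. Overlap, runs, gaps and windows were computed with Python 3.11.15, numpy 2.4.6, pandas 2.3.3 and scipy 1.17.1. Overlap code gave 0 differences from a plain loop in 3600 simulated cases, and 2000 planted run lengths were all recovered. Named regions are the 10 highest scores, the 3 highest in no other list, in all 6 lists and in Notch-dependent FAIRE, the 5 longest runs, the 5 fullest windows of 1 Mb, the FAIRE regions with most fragments and the length extremes. The stretches on chromosomes 11, 13 and 15 were singled out after their values were seen. Members and lists were chosen with earlier results of these data known. Alternatives were the upper part by score, 50% overlap, a length range, autosomes only, merged runs and other distances.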

Additional observations from a re-analysis of the deposited data

How the results depend on the processing

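Of 59 alternative values, 23 stayed within the 95% counting interval of the share reported, 36 left it and 0 changed direction, since a share has none. With autosomes only, and without 10 to 13 Mb of chromosome 15 (chosen after seeing the data), every share in another SpDamID list and in FAIRE stayed within it. The 50% overlap left the 5 shares in SpDamID lists as they were, which the common map fixes, since distinct fragments have 0 partial overlaps; these 5 are among the 23. From the median score up, the shares in N1/RBP, N1/MAML, N1/p300, N1/N1 and Mef2c/p300 were 43, 33.8, 37.9, 38.6 and 38.5%, and those in total and Notch-dependent FAIRE 29.1 and 4.04%. In the range of 405 to 786 bp they were 34.7, 18.8, 26.5, 28 and 33.1%, and 19.9 and 2.66%. With touching fragments merged they were 31.5, 21.4, 26.2, 27.2 and 29.4%, and 21.1 and 2.82%. With the upper part of the other list they were 18.7, 12.5, 15.3, 16 and 16.9%, and with FAIRE regions from the median score up 12.9 and 1.76%. By 50% overlap the FAIRE shares were 16.6 and 2.33%. Fragments touching another made up 19.5% of the upper part by score, and 28% lay within 100 bp of another. The share within 10 kb of another was 60.5% in the upper part by score and 65.6% for merged runs, and within 5 and 50 kb it was 63.3 and 93.7%. No paired analysis was possible because the lists hold no value per library, and leaving out a replicate was not run for the same reason. No value has a replicate error, and list length, score and library number differ between the lists compared.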
